A study of Homo sapiens with 10 samples.

Results

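Transcripts of 48 genes that copy DNA or prepare cells for S phase were followed in HN5 and FaDu, established human lines derived from squamous cell carcinomas of the head and neck. The 48 genes were listed by name and function, with earlier results of these data known, and are 48 of the 20741 genes with a named probe on the arrays of at least 1 line. By role they comprise 19 genes of helicase loading and origin firing, 19 of polymerases, clamp and fork processing, 6 of nucleotide synthesis and uracil removal, and 4 that are E2F factors or act on histone mRNA. The cells had been transfected with miR-7 or with miR-NC, a negative-control miRNA, and total RNA was hybridised to 1-colour Illumina BeadChips after 24 h. There were 2 arrays of each condition for HN5 and 3 of each for FaDu, all described as biological replicates in the labels. No other genotype or treatment is given for any group, and both conditions were compared within each line because the lines were run on different array types.

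Eukaryotic DNA replication begins when the origin recognition complex, CDC6 and CDT1 load the MCM2 to MCM7 helicase onto DNA in G1, and geminin (GMNN) later blocks reloading. CDC7 kinase, CDC45 and the GINS complex then turn the helicase on. DNA polymerases extend primers behind the sliding clamp PCNA, and ribonucleotide reductase and thymidylate synthase supply the nucleotides. Many of these genes are transcribed by E2F factors as cells leave G1, so their mRNA is often read as a measure of S-phase entry. In bulk RNA, fewer cells in S phase and less mRNA per cell cannot be told apart.

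MiR-7 pairs with target mRNAs mainly through its seed, bases 2 to 8 from the 5′ end. The mature sequence is shown because it is the agent added to the cells. It is given as RefSeq lists it for MIR7-1 on GRCh38.p14 (chr9:83969811-83969834, minus strand), in lower case with the seed in capitals.
hsa-miR-7-5p: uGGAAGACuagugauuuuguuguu

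EGFR, an established miR-7 target in these cells, served as a check of the labels. Its normalized log2 intensity in HN5 was 13.81 and 13.68 on the miR-NC arrays and 12.11 and 12.05 on the miR-7 arrays, a log2 fold change of -1.67 ± 0.18 (SE; adjusted p = 0.0492, limma). In FaDu it was 7.91, 7.98 and 7.94 on the arrays labelled miR-NC against 9.61, 9.48 and 9.46 on those labelled miR-7, a log2 fold change of 1.57 ± 0.07 (adjusted p = 2.64e-06). EGFR thus differed in opposite directions in the lines. For FaDu the study describes the reverse of what the labels give, and since the labels were followed here, each FaDu sign below would turn if they had been exchanged. Correlations between arrays over all tested genes were 0.994 to 0.996 within the FaDu groups and 0.972 to 0.974 between them. HN5 miR-7 replicate 2 stood apart, at 0.909 to 0.928 with the other 3 HN5 arrays, which correlated at 0.970 to 0.987 with each other. Of 8 epithelial markers 5 were detected in HN5 and 6 in FaDu, among them KRT5, KRT14, EPCAM and CDH1, and TP63 and KRT17 had no named probe. The summed intensity of the detected epithelial markers was 15267 to 16646 on the FaDu arrays labelled miR-NC and 17876 to 18615 on those labelled miR-7, with KRT5, KRT8, KRT14 and KRT18 higher at an adjusted p of 0.05 and CDH1 (-0.21) and EPCAM (-0.16) not passing. In HN5 it was 76881 to 77126 with miR-NC and 71072 to 75264 with miR-7, with 0 of 5 past the threshold. Of 6 fibroblast markers 0 were detected in FaDu and 3 in HN5, where their sum was 1097 to 1325 with miR-NC and 1183 to 1673 with miR-7 (COL1A1 0.36, COL3A1 -0.50 and LUM -1.06 on the log2 scale, none past the threshold). Of 7 leukocyte and endothelial markers 3 were detected in FaDu (620 to 654 with miR-NC and 544 to 626 with miR-7; VWF higher by 1.19, CDH5 higher by 0.49 and CD14 lower, at -0.39) and 2 in HN5 (649 to 669 and 745 to 830), and PTPRC and CD3E were detected in neither line. The part of these markers in the results below was not tested.

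In FaDu, 47 of the 48 replication genes were detected and tested, and PRIM2 was not. At an adjusted p of 0.05 (limma with Benjamini-Hochberg adjustment over 9997 genes), 11 were lower and 4 were higher on the arrays labelled miR-7. These are 23.4% lower and 8.51% higher, beside 21.8% lower and 20.0% higher among all genes tested, and 31.9% called in either direction beside 41.8%. At an unadjusted p under 0.05, 13 were lower and 5 higher. The changes were small. Only RRM2 passed 1.5-fold, which is 2.13% of the tested replication genes against 12.6% of all genes, and the median size of the log2 fold change was 0.13 against 0.21. The median signed change was -0.003, beside -0.029 over all genes. At the thresholds of the study, an unadjusted p under 0.05 and at least 1.5-fold, 1 gene was lower (5.31% of all genes) and 0 were higher (7.28%). With scaling to equal medians in place of quantile normalization the adjusted calls fell to 2 lower (RRM2 and RPA2) and 2 higher (CDT1 and POLD1). Leaving out 1 array gave 4 lower genes without miR-7 replicate 1 or 2, 5 without miR-7 replicate 3 or miR-NC replicate 3, 7 with miR-NC replicate 2 removed and 10 with miR-NC replicate 1 removed. The higher genes numbered 2 without miR-7 replicate 3 and 3 in the other cases. Without miR-7 replicate 2 they included PRIM2, a dim gene detected on 2 of the FaDu arrays. It entered that test through the miR-7 group, in which it was higher. RRM2, RPA2, CDT1 and POLD1 passed in all 16 alternatives run.

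In HN5, 45 of the 48 genes were tested, and GINS1, E2F1 and E2F8 were not above background on all arrays of either group. None of the 45 passed an adjusted p of 0.05, beside 0.304% of 9549 genes (0.126% lower and 0.178% higher), and 4 had an unadjusted limma p under 0.05. By the methods' t-test 2 had an unadjusted p under 0.05 and 0 passed after adjustment. At the study thresholds 2 genes were lower (RFC5 and RPA1; 4.41% of all genes were) and 2 were higher (GINS4 and RPA3; 6.01% of all genes) by limma, while the methods' t-test gave 0 lower and 0 higher at the same thresholds. The median change was 0.009, beside 0.043 over all genes, and 7 of 45 (15.6%) differed by 1.5-fold or more against 16.4% of all genes. These counts depended on single arrays. The fit without miR-7 replicate 1 leaves replicate 2 as the lone miR-7 array and assumes that it varies as the miR-NC pair does. Its largest log2 fold changes were in CDC45 (-4.90), GMNN (-3.76) and PCNA (-3.71), on the probes that were low on replicate 2 alone, as described below. RFC5 (-1.23) and CDC7 (-1.08) came next. At the study thresholds 0 genes passed once miR-NC replicate 1 was removed, and 1 passed in each direction once miR-NC replicate 2 or miR-7 replicate 2 was. The plot of fold changes by line sets both lines side by side.

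**Figure D1:**
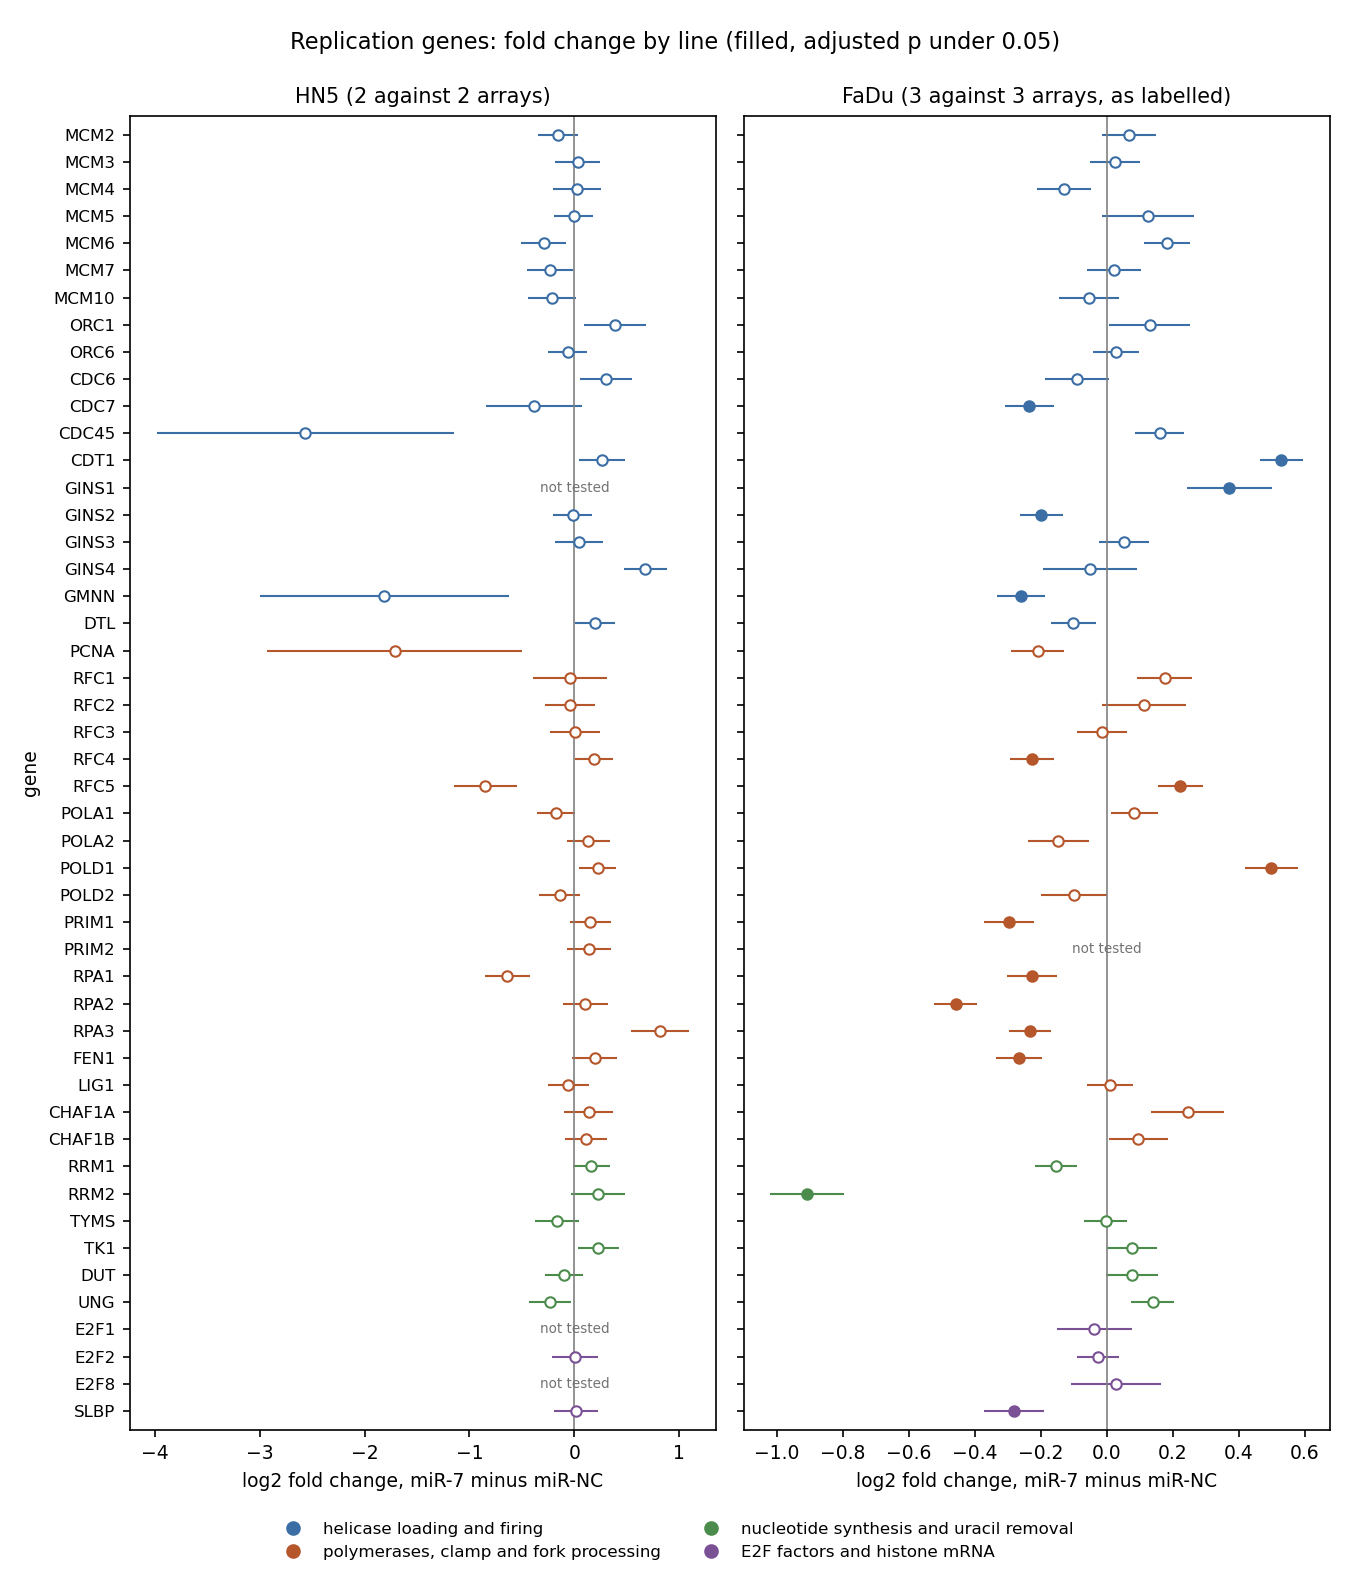
Log2 fold change (miR-7 minus miR-NC, x axis) of each of the 48 replication genes (y axis) in HN5 and, as labelled, in FaDu, with bars of 1 SE, colours for the 4 roles and filled points for an adjusted p under 0.05. The x scales differ: FaDu changes lie between -0.91 (RRM2) and 0.53 (CDT1), and in HN5 the wide bars of CDC45, GMNN and PCNA come with 1 array that differs from its replicate.

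RRM2, the small subunit of ribonucleotide reductase, whose level rises in S phase and limits nucleotide supply, had the largest change of the 47 genes in FaDu. Its log2 intensity was 8.76, 8.93 and 9.15 on the arrays labelled miR-NC and 8.18, 8.01 and 7.92 on those labelled miR-7. The groups did not overlap, and the level was 1.88-fold lower with the miR-7 label (log2 fold change -0.91 ± 0.11, SE; adjusted p = 0.000363). In HN5 RRM2 stood at 11.25 and 10.76 with miR-NC and at 11.04 and 11.43 with miR-7, overlapping groups with a log2 fold change of 0.23 ± 0.26. RRM1, the large subunit of the same enzyme, was 12.45, 12.40 and 12.41 against 12.29, 12.29 and 12.22 in FaDu. Its groups did not overlap, yet its change of -0.15 ± 0.06 missed the threshold (adjusted p = 0.0860), and in HN5 it was 0.16 ± 0.18. Each subunit was read by 1 probe, and the difference between their changes was not tested.

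The other genes of nucleotide supply did not pass in either line, although UNG was called higher in FaDu with the authors' log2 values and by the methods' t-test, and RRM1 lower with both of these and without background correction. Thymidylate synthase (TYMS) changed by -0.003 ± 0.07 in FaDu, from 10.90, 10.90 and 10.94 to 10.91, 10.96 and 10.86, and by -0.17 ± 0.21 in HN5. The values of both FaDu groups interleaved. Thymidine kinase (TK1), which recovers thymidine, was 12.59 and 12.56 with miR-NC and 12.67 and 12.94 with miR-7 in HN5 (0.23 ± 0.20; adjusted p = 0.613), and its FaDu change was 0.08 ± 0.08. UNG, the glycosylase that removes uracil from DNA, was 12.65 and 12.52 against 12.20 and 12.51 in HN5 (-0.23 ± 0.20; adjusted p = 0.622) and changed by 0.14 ± 0.07 in FaDu. DUT, which destroys dUTP before it can be built in, changed by -0.10 ± 0.18 in HN5 and 0.08 ± 0.08 in FaDu, on different brightest probes. The FaDu probe gave -0.24 ± 0.19 in HN5, and the HN5 probe gave 0.12 ± 0.07 in FaDu.

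Among the 19 genes that load and fire the helicase, 3 were lower and 2 were higher in FaDu. Both shares were below those of all genes tested, of which 21.8% were lower and 20.0% higher. CDT1, the loading factor that geminin inhibits, rose with the miR-7 label. It was 9.61, 9.53 and 9.61 on the arrays labelled miR-NC and 10.11, 10.08 and 10.16 on those labelled miR-7, with no overlap and close replicates in both groups, a 1.44-fold difference (log2 fold change 0.53 ± 0.07; adjusted p = 0.000370). GMNN, the inhibitor of CDT1, fell with the same label, from 10.53, 10.56 and 10.62 to 10.33, 10.22 and 10.38 (-0.26 ± 0.07; adjusted p = 0.0198), again without overlap. The GMNN call was lost without miR-NC replicate 3 or without miR-7 replicate 2 and under median scaling. CDC7, the kinase that activates the loaded helicase, was lower by -0.23 ± 0.07 (adjusted p = 0.0323) and GINS2, a subunit of the active helicase, by -0.20 ± 0.07 (adjusted p = 0.0406). GINS1, of the same complex, was higher by 0.37 ± 0.13 (adjusted p = 0.0465) but dim, detected on 2 of the 3 miR-NC arrays and all 3 miR-7 arrays. It therefore entered the test through the group in which it was higher, and with detection required on every array it was not tested and 3 genes were higher. In 16 alternatives the call held in 5 for GINS1, 7 for GINS2 and 8 for CDC7.

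The 6 subunits of the MCM2 to MCM7 helicase, which sit at the fork and are the usual transcripts of a replication signature, did not pass in either line. In FaDu their changes ran from -0.13 ± 0.08 (MCM4) to 0.18 ± 0.07 (MCM6, adjusted p = 0.0657), and in HN5 from -0.29 ± 0.22 (MCM6) to 0.03 ± 0.21 (MCM3). MCM6 was 11.80, 11.75 and 11.83 on the FaDu arrays labelled miR-NC and 11.91, 11.97 and 12.06 on those labelled miR-7, groups that did not overlap but stood close, and it was called higher without background correction, with an offset of 50 and with the authors' log2 values. MCM10, ORC1, ORC6, CDC6, GINS3, GINS4, CDC45 and DTL also lay between -0.10 and 0.16 in FaDu with no call. DTL is a factor that marks CDT1 for destruction. CDC45 was called higher in FaDu with the authors' log2 values, and MCM5 without miR-NC replicate 2. GINS4 had the smallest p of the group in HN5, with 7.86 and 8.06 on the miR-NC arrays and 8.50 and 8.77 on the miR-7 arrays. The groups did not overlap and the ratio was 1.60, with a log2 fold change of 0.68 ± 0.20 and an adjusted p of 0.276. In FaDu the same probe gave -0.05 ± 0.14.

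Among the genes of polymerases, clamp and fork processing, 6 of 18 tested (33.3%) were lower and 2 (11.1%) were higher in FaDu. Of all genes tested, 21.8% were lower and 20.0% higher. Calls in either direction made up 44.4% of this role beside 41.8% of all genes. The 3 subunits of replication protein A, which coats single-stranded DNA at the fork, were each lower with the miR-7 label. RPA2 was 11.59, 11.54 and 11.51 on the arrays labelled miR-NC and 11.13, 11.05 and 11.08 on those labelled miR-7, a 1.37-fold difference without overlap (log2 fold change -0.46 ± 0.06; adjusted p = 0.000767). RPA3 was 12.27, 12.31 and 12.24 against 12.03, 12.03 and 12.06 (-0.23 ± 0.06; adjusted p = 0.0190), and RPA1 was 11.48, 11.55 and 11.67 against 11.29, 11.35 and 11.39 (-0.23 ± 0.08; adjusted p = 0.0398). Both gave groups without overlap at smaller differences than RPA2. The RPA1 call held in 7 of 16 alternatives and the RPA3 call in 12, and the other 2 RPA1 probes changed by -0.06 ± 0.10 and -0.11 ± 0.09.

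POLD1, the catalytic subunit of DNA polymerase delta, rose in FaDu. It was 7.89, 7.91 and 7.89 on the arrays labelled miR-NC and 8.51, 8.25 and 8.43 on those labelled miR-7, groups without overlap and 1.41-fold apart (0.50 ± 0.08; adjusted p = 0.00150). Its partner POLD2 changed by -0.10 ± 0.10. The primase subunit PRIM1 was lower by -0.30 ± 0.08 (adjusted p = 0.0141), and its second probe gave -0.29 ± 0.08. FEN1, which trims Okazaki fragments, was lower by -0.27 ± 0.07 (adjusted p = 0.0161). Its second probe gave -0.27 ± 0.09 and did not pass (adjusted p = 0.0568 over probes, limma). Of the clamp loader, RFC4 was lower by -0.23 ± 0.07 (adjusted p = 0.0258) and RFC5 higher by 0.22 ± 0.07 (adjusted p = 0.0302), and the calls held in 8 and 9 of 16 alternatives. The other RFC4 probe gave -0.08 ± 0.08 (adjusted p = 0.464 over probes), and the RFC4 call was lost with the mean of probes. RFC1, RFC2 and RFC3 had values of 0.18 ± 0.08, 0.11 ± 0.13 and -0.01 ± 0.08 with no call. LIG1, POLA1, POLA2, CHAF1A and CHAF1B did not pass, at -0.15 ± 0.09 (POLA2) to 0.25 ± 0.11 (CHAF1A).

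**Figure D2:**
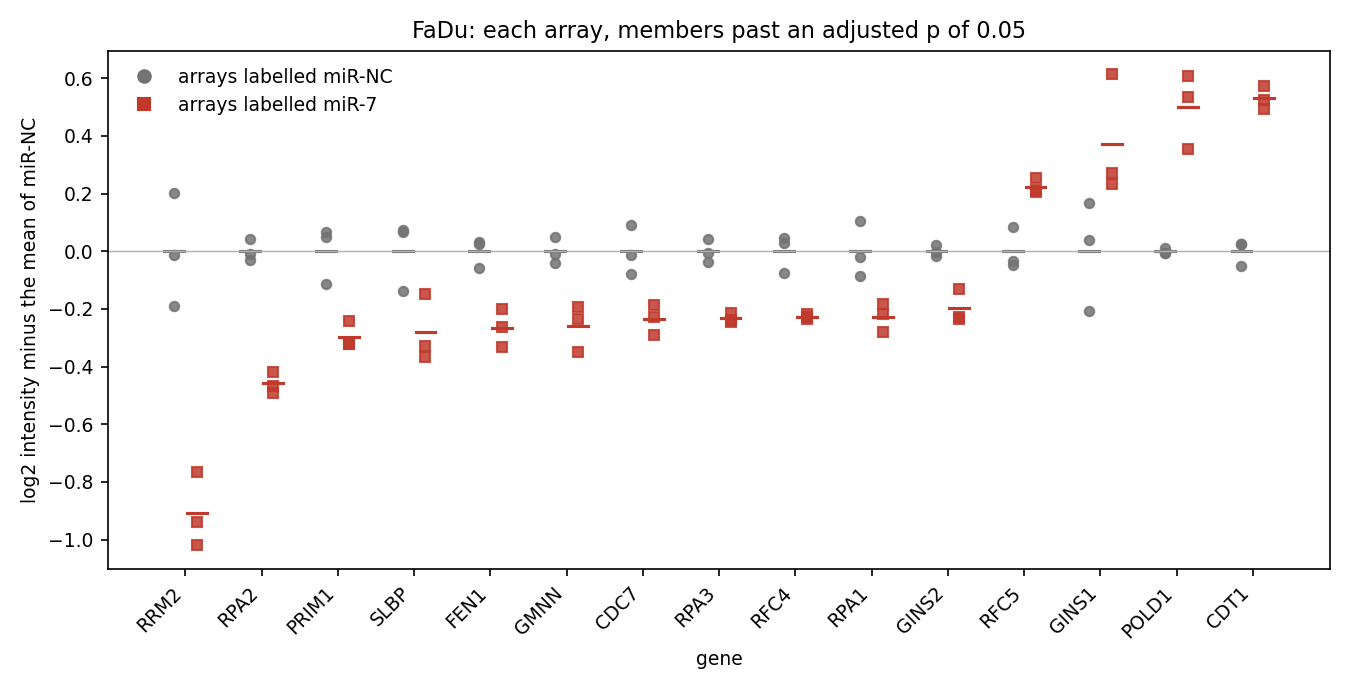
Normalized log2 intensity of each FaDu array minus the gene's mean over the arrays labelled miR-NC (y axis) for the 15 replication genes past an adjusted p of 0.05 (x axis), with grey circles for miR-NC, red squares for miR-7 and short lines for group means. RRM2 lies about 0.9 below its control mean, and CDT1 and POLD1 about 0.5 above theirs, while most others lie between 0.2 and 0.3 below.

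In HN5 this role, with 19 of the 45 genes tested, held 2 of the genes lower (RPA1 and RFC5) and 1 higher (RPA3) at the study thresholds by limma, beside 4.41% and 6.01% of all genes, and 0 by the methods' t-test. RPA1 was 13.13 and 12.77 with miR-NC and 12.24 and 12.39 with miR-7, a ratio of 1.56 in favour of miR-NC (-0.64 ± 0.21; adjusted p = 0.310). Its second HN5 probe gave -0.72 ± 0.26, and both probes held non-overlapping groups. RPA3 was 12.00 and 12.72 with miR-NC and 13.21 and 13.15 with miR-7 (0.82 ± 0.28; adjusted p = 0.322), with a wide gap between the miR-NC arrays. RFC5 was 11.97 and 11.67 against 11.35 and 10.59 (-0.85 ± 0.30; adjusted p = 0.335), and without miR-7 replicate 2, the lowest of the 4 arrays, it was -0.46 ± 0.25.

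CDC45, GMNN and PCNA had far lower values on HN5 miR-7 replicate 2 than on the other miR-7 array, a feature noticed after the values were seen. CDC45, the helicase cofactor, was 11.95 and 11.74 with miR-NC and 11.62 on miR-7 replicate 1, but 6.94 on replicate 2. The scanner intensities behind these values were 5267, 3255, 3343 and 180, so the drop was in the deposited signal before any normalization. GMNN was 10.17, 10.03 and 10.24 against 6.34, where it was not detected, and the brightest PCNA probe was 11.93, 11.76 and 12.13 against 8.13. Relative to the lowest of the other 3 arrays the differences were 25.5-fold for CDC45 and 12.3-fold for PCNA, and no fold is given for GMNN. Because the 2 miR-7 arrays disagreed, none passed the test (adjusted p = 0.473, 0.523 and 0.544), and without replicate 2 their changes were -0.23 ± 0.24, 0.14 ± 0.24 and 0.28 ± 0.24.

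Where a gene had several probes on that array, they did not move together. PCNA's other 2 probes were 9.32, 9.34 and 9.84 against 9.51 on miR-7 replicate 2, and 6.49, 6.74 and 7.01 against 6.93, within or near the range of the other arrays. RFC4 showed the same split, with 11.95, 11.87 and 12.29 against 7.95 on its dimmer probe and 12.54, 12.64 and 12.75 against 12.80 on its brighter one. MCM4 had a smaller split, 11.60, 11.59 and 11.55 against 10.14 on the dimmer probe and 13.97, 13.69 and 13.65 against 14.06 on the brighter. Across the whole array, 168 of 9549 genes (1.76%) lay more than 3 log2 units below the lowest of the other HN5 arrays, 3 of the 45 replication genes among them, and on every other HN5 or FaDu array the count was 0. Of 239 genes with such a probe, 99 had another detected probe, and 6 of these 129 other probes lay more than 1 log2 unit below.

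**Figure D3:**
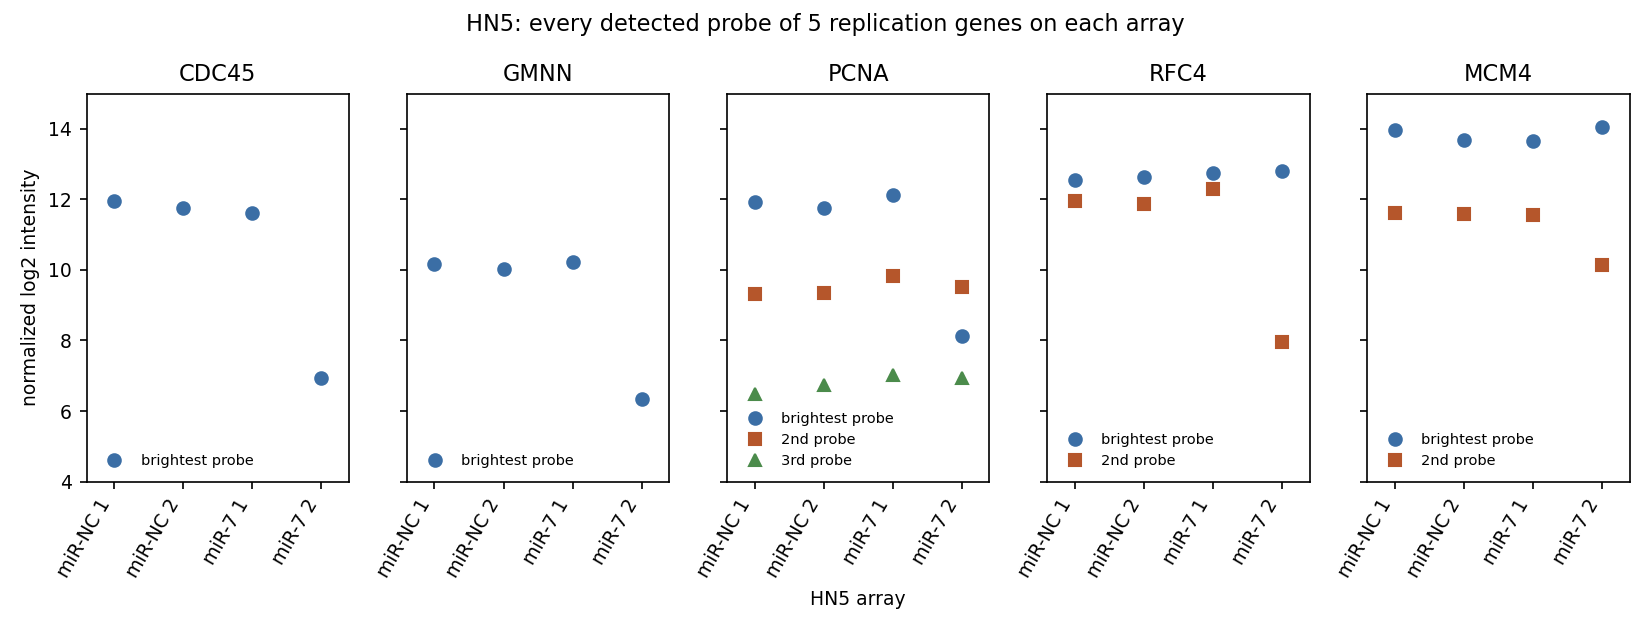
Normalized log2 intensity (y axis) of every detected probe of CDC45, GMNN, PCNA, RFC4 and MCM4 on the 4 HN5 arrays (x axis), with a marker for each probe from brightest to dimmest. On miR-7 replicate 2 a single probe of PCNA falls to 8.13 and a single probe of RFC4 to 7.95 while the other probes of both genes keep to the level of the remaining arrays.

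The E2F factors showed little difference. E2F2, an activator of S-phase genes, was 9.73, 9.75 and 9.79 on the FaDu arrays labelled miR-NC and 9.71, 9.73 and 9.75 on those labelled miR-7 (-0.03 ± 0.06; adjusted p = 0.764). In HN5 it was 10.90 and 10.88 against 10.68 and 11.12 (0.01 ± 0.22), and both lines gave overlapping groups. E2F1, an activator, and E2F8, a repressor, were dim in FaDu, at -0.04 ± 0.11 and 0.03 ± 0.14. SLBP, which binds the stem-loop of replication-dependent histone mRNA, was lower in FaDu, with 10.54, 10.74 and 10.75 against 10.35, 10.31 and 10.53 (-0.28 ± 0.09; adjusted p = 0.0364). The groups nearly touched, the call held in 9 of 16 alternatives, and the second probe gave -0.15 ± 0.08. In HN5 the brightest SLBP probe was the other one, with 11.79 and 11.44 against 11.57 and 11.70 (0.02 ± 0.21). The probe that stood for SLBP in FaDu was 9.41 and 9.06 against 8.87 and 8.76 in HN5, groups without overlap. Its change there was -0.42 ± 0.21 (adjusted p = 0.465 over probes, limma).

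Other probes of the replication genes added a few differences in FaDu. Of 73 probes, 68 were detected. Adjusted over all detected probes, of which 36.5% of 16277 passed, 12 of the 68 were lower and 4 were higher. These counts include the brightest probes. Those of RPA1 (adjusted p = 0.0510, limma), GINS2 (0.0529) and GINS1 (0.0566) passed over genes but not over probes. A dimmer PCNA probe passed, with 7.85, 8.12 and 7.86 against 7.55, 7.40 and 7.48 (-0.47 ± 0.09, adjusted p = 0.00632). The brightest gave -0.21 ± 0.08 (adjusted p = 0.0641 over genes). As a gene, PCNA was called lower without background correction, with an offset of 50 and with the authors' log2 values. It was also called lower with the mean of probes and without miR-NC replicate 2. A dimmer ORC6 probe was lower (-0.23 ± 0.08; adjusted p = 0.0487) and a dimmer MCM7 probe higher (0.35 ± 0.10; adjusted p = 0.0265), although the brightest probes of both genes changed by 0.03 ± 0.07 and 0.02 ± 0.08. Of 17 genes with several detected probes in FaDu, 11 had the same sign on all of them, and in HN5 6 of 15 did.

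The difference between the lines was tested for 43 replication genes with a probe on both array types that was detected in both lines. Only RRM2 passed, with a change that was 1.13 ± 0.28 higher on the log2 scale in HN5 than in FaDu (adjusted p = 0.0402 over 12433 shared probes, of which 14.2% passed). RPA3 (1.05 ± 0.29; adjusted p = 0.0717), GINS4 (0.73 ± 0.25; adjusted p = 0.0810) and RFC5 (-1.07 ± 0.32; adjusted p = 0.0828) came next and did not pass. The RRM2 difference rested on FaDu, where RRM2 changed, and on the FaDu labels. No HN5 array was left out of this test. The HN5 change of RRM2 ran from -0.018 to 0.47 over the alternatives for that line. With the FaDu signs turned 0 replication genes passed and RRM2 had a difference of -0.68. The RRM2 difference missed the threshold without FaDu miR-NC replicate 3 (adjusted p = 0.0557) and without background correction (0.0528). It also missed the threshold with the replicate block (0.0737) and under median scaling (0.116).

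Promoter sequence was examined next. The choice of genes had not read it, but many S-phase genes are transcribed by E2F factors. The share with an E2F-type motif is therefore not independent of the choice. RefSeq promoters on GRCh38.p14, from 250 bases before to 50 after each start, were at hand for 42 of the 48 genes. The E2F-type motif was searched as TTTCCCGC, TTTCGCGC, TTTGCCGC or TTTGGCGC on either strand (GCGGGAAA, GCGCGAAA, GCGGCAAA or GCGCCAAA), where matches on opposite strands may overlap. It was present in 18 of the 42 promoters (42.9%), against 12 of 48 (25.0%) of the other replication genes described below, 8.33% of 24 G2/M genes and 3.33% of 27305 promoters of all genes. Among genes called in FaDu it was in 1 of 9 promoters of lower genes and 2 of 4 of higher genes, and in 15 of 28 of genes without a call. A match is a run of letters and not evidence that a factor binds there.

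The promoters of the strongest rise in FaDu (CDT1) and of a helicase gene with no call (MCM6) are shown with the motif in capitals. CDT1 lies at chr16:88803539-88803838 on the plus strand and MCM6 at chr2:135876394-135876693 on the minus strand, where MCM6 has 4 matches in overlapping pairs.
CDT1: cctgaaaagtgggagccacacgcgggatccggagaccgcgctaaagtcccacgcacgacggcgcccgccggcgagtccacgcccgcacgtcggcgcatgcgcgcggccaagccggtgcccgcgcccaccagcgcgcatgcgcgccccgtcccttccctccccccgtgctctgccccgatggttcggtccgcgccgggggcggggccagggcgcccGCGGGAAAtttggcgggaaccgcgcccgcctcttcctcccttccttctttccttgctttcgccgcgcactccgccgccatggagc
MCM6: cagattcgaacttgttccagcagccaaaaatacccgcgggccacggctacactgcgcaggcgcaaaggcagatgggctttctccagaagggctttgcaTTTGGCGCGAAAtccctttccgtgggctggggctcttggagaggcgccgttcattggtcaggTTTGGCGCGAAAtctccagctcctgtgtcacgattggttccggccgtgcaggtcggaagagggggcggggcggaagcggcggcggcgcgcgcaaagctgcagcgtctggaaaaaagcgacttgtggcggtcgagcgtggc

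The promoter of RRM2 (chr2:10122489-10122788, plus strand) held no match to this motif. It is shown because RRM2 had the largest change in FaDu, with capitals on the CCAAT box, a motif chosen after the sequence was seen.
RRM2: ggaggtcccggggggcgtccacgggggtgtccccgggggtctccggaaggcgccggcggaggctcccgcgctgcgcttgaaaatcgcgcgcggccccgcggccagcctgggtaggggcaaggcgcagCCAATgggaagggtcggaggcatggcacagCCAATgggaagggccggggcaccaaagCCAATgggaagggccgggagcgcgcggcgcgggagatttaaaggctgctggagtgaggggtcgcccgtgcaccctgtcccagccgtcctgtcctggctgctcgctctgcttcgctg
RRM2 had 3 copies of CCAAT, searched as CCAAT or ATTGG. At least 3 copies were found in 19.0% of the promoters of the replication genes, 16.7% of those of the G2/M genes and 3.42% of those of all genes.

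Other replication genes, listed by function with earlier results of these data known, stood beside the 48. In FaDu 13 of 51 tested (25.5%) were lower and 7 (13.7%) higher, beside 21.8% and 20.0% of all genes. Calls in either direction made up 39.2% beside 41.8%, and the median was -0.023 beside -0.029. POLE4 and POLE3, histone-fold subunits of DNA polymerase epsilon, had the smallest p. POLE4 was 9.13, 9.14 and 9.26 on the arrays labelled miR-NC and 12.56, 12.50 and 12.38 on those labelled miR-7 (3.31 ± 0.08; adjusted p = 4.81e-07), and POLE3 changed by 1.74 ± 0.10 (adjusted p = 7.93e-06). Both were far larger than any change among the 48. FAM111A, a protease that acts at the fork, and E2F7, a repressor of E2F targets, were lower at -0.53 ± 0.08 and -0.51 ± 0.08 (adjusted p = 0.000902 and 0.00118). In HN5 1 of 49 (2.04%) was lower and 0 higher, beside 0.126% and 0.178% of all genes. POLE4 was 12.75 and 13.14 with miR-NC and 10.63 and 10.72 with miR-7 (-2.27 ± 0.21; adjusted p = 0.0461), and POLE3 (-1.10 ± 0.26), DTYMK (-1.02 ± 0.22) and MCMBP (-0.87 ± 0.36) did not pass. The changes of both had the sign of EGFR in each line, negative in HN5 and positive under the FaDu labels.

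Genes of G2 and mitosis gave a different count from the replication genes in FaDu. Of 30 tested, 20 were lower (66.7%) and 0 higher, beside 21.8% lower and 20.0% higher among all genes and 41.8% in either direction. The median was -0.35 beside -0.003 for the replication genes. NEK2, a centrosome kinase, was lower by -0.93 ± 0.09 (adjusted p = 0.000120), AURKA, a spindle kinase, by -0.69 ± 0.07 (adjusted p = 9.81e-05), NUF2, a kinetochore protein, by -0.61 ± 0.07 (adjusted p = 0.000194) and KIF20A, a kinesin, by -0.56 ± 0.07 (adjusted p = 0.000286). RRM2, at -0.91, was the one replication gene of this size. In HN5 0 of 30 passed and 0 had an unadjusted limma p under 0.05 (by the methods' t-test 2 had one), and AURKA (0.51 ± 0.21), BIRC5 (0.45 ± 0.22), CDC25C (0.35 ± 0.18) and NDC80 (0.35 ± 0.20) had the smallest p. The difference between the lists was described by counts and medians and was not tested.

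**Figure D4:**
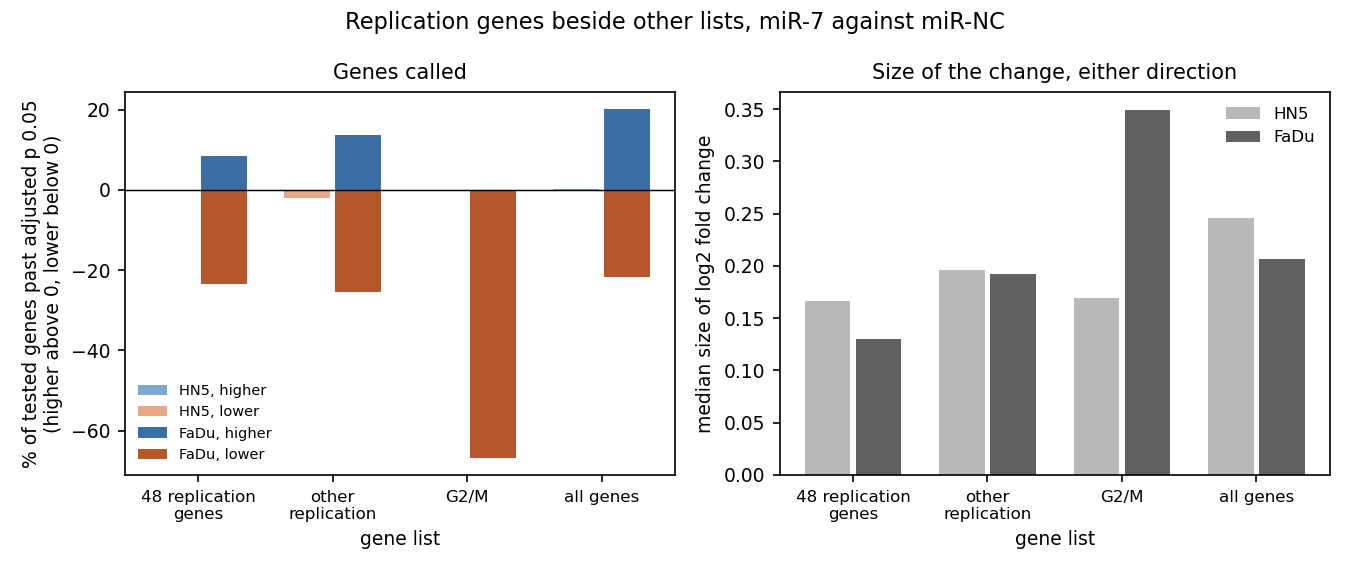
Left, percent of tested genes past an adjusted p of 0.05 (y axis, higher above 0 and lower below) for the 48 replication genes, other replication genes, G2/M genes and all genes in HN5 and FaDu. Right, the median size of the log2 fold change in the same lists: 0.13 for the replication genes in FaDu against 0.35 for the G2/M genes and 0.21 for all genes.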

How the data were processed

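The 48 genes, the other lists and the tests were chosen with earlier results of these data known. The authors deposited probe intensities without background correction or normalization, a detection p-value for each probe (stored in the deposited files as 1 minus p), and log2 values that the authors made in R 2.11.0 (lumi's variance-stabilizing transformation and Partek's quantile normalization). In the deposited log2 tables the values are out of step with the identifiers of their lines. They were read in probe order, in which 0 ranks differed from the intensities, and used as an alternative only; 4 cells of HN5 miR-NC replicate 1 were missing.

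For each line separately, the neqc function of limma 3.58.1 in R 4.3.3 corrected the background through the detection p-values, added an offset of 16, applied quantile normalization and took log2. A probe counted as detected below a p-value of 0.01 and was retained if detected throughout 1 or more groups, and the brightest such probe stood for a gene. Probes were named through the arrays' platform annotation (27577 of 48802 probes with 1 gene in HN5 and 30112 of 47230 in FaDu). Groups were compared with lmFit and eBayes of limma, with Benjamini-Hochberg adjustment over 9549 genes in HN5 and 9997 in FaDu, and the steps were tested on data with known changes. For probes on both array types that were detected in both lines, the changes in HN5 and FaDu were subtracted. The difference was tested against their combined standard error (Welch-Satterthwaite degrees of freedom). Limma p-values weigh the difference between groups against the spread between arrays, moderated over genes. The number of arrays limits the precision.

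Values on every array are given for genes past an adjusted p of 0.05 and 1.5-fold, for the 2 genes of each role with the smallest p in each line, and for others named as seen afterwards or for comparison; of the other lists, the 4 genes with the smallest p in each line are named. The alternatives were no background correction, an offset of 50, median scaling, the authors' log2 values, no detection filter, detection on every array, the mean of detected probes, a replicate block, a robust prior, the methods' t-test, leaving out each array and, between lines, turned FaDu signs. Between lines, arrays were left out for FaDu alone. Plots used Python 3.11.15 and Matplotlib 3.10.9.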

Additional observations from a re-analysis of the deposited data

Results flagged for a closer look

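RRM2 was the one replication gene whose change differed between the lines by a test of the difference itself. Its log2 fold change was 0.23 in HN5 and -0.91 in FaDu as labelled, a difference of 1.13 ± 0.28 (SE; adjusted p = 0.0402 from limma fits, with Benjamini-Hochberg adjustment over 12433 shared probes). It was higher than every miR-7 array on 3 of 3 FaDu arrays labelled miR-NC, while the HN5 groups overlapped. With the FaDu signs turned the difference was -0.68 (adjusted p = 0.507). The adjusted p ranged from 0.0160 to 0.507 over the alternatives run, which left out no HN5 array.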

How the results depend on the processing

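Calls in FaDu depended on the normalization. Of replication genes at an adjusted p of 0.05, 2 were lower and 2 higher under median scaling, and 6 were lower with no detection filter, where 1 was higher at the study thresholds. Leaving out 1 array gave 4 to 10 lower and 2 to 3 higher, and 1 to 1 lower and 0 to 1 higher at the study thresholds, with a median of -0.04 to 0.01. Dim PRIM2 was among the higher genes at an adjusted p of 0.05 with no detection filter and without miR-7 replicate 2. In HN5 the higher genes at the study thresholds numbered 1 without background correction, 1 with the authors' log2 values and 0 under median scaling, and the methods' t-test gave 0 lower and 0 higher. Leaving out 1 HN5 array gave 0 to 5 lower and 0 to 3 higher at an adjusted p of 0.05, 0 to 5 and 0 to 3 at the study thresholds, and a median of -0.08 to 0.11. Median scaling moved the median of all HN5 genes from 0.043 to -0.148 and that of the replication genes to -0.122. Between the lines, 0 genes differed without background correction, under median scaling or with the FaDu signs turned, 3 with a robust prior (RRM2, RPA3 and RFC5), and 0 to 2 with 1 FaDu array left out.

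Replicate numbers did not pair the arrays (correlations of deviations between -0.03 and 0.06 in FaDu and 5e-04 in HN5). With the replicate block 10 genes were lower and 3 higher in FaDu, 3 lower and 2 higher at the HN5 study thresholds, and 0 differed between lines (RRM2 adjusted p = 0.0737).

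Of 419 comparisons of a named gene with an alternative, 372 kept direction and side of the threshold, 23 lost the call, 10 gained it and 14 changed sign. The sign changes with 1 array left out were in GINS4 in FaDu (-0.19 to 0.10 over the arrays left out; 0.10 without miR-NC replicate 3 and 0.03 without miR-7 replicate 2) and, in HN5, in GMNN (-3.76 to 0.14; 0.14 without miR-7 replicate 2), RRM2 (-0.018 to 0.47; negative without miR-NC replicate 2), RPA2 (-0.092 to 0.30; negative without miR-7 replicate 1), E2F2 (-0.21 to 0.23; -0.0044 without miR-NC replicate 2 and -0.21 without miR-7 replicate 2) and SLBP (-0.15 to 0.20; -0.15 without miR-NC replicate 2 and -0.05 without miR-7 replicate 2). Under median scaling the HN5 values of POLD1 (-0.0011), RPA2 (-0.0055), E2F2 (-0.17) and SLBP (-0.16) turned, as did that of SLBP with the mean of probes (-0.20). The cause was not tested.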
